A study of Mus musculus with 12 samples.

Results

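The genes described here are the microRNA genes that could be read on whole-transcript Affymetrix arrays of aged mouse LSK cells, the bone marrow fraction (Lineage-, SCA1+, cKIT+) that holds haematopoietic stem and progenitor cells. They were selected on brightness, as probe sets with exactly 1 gene symbol of the form Mir or Mirlet plus a number, taking the brightest probe set of each gene, and were kept where the value exceeded 5.29 in at least 3 of the 12 arrays. That limit is the 40th percentile of the whole table on the log2 scale. Of 483 microRNA genes with such a probe set, 203 passed, among 15348 genes of any kind that passed and 22180 with a symbol of their own. The choice used brightness over all arrays and no contrast between groups, and Mir34a was singled out with its response already known.

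The 12 arrays form 4 groups of 3: NIPA knockout (KO) cells irradiated with 4 Gy, untreated KO cells, irradiated wild-type (WT) cells and untreated WT cells. NIPA is the protein of Zc3hc1. All donors were older than 20 months and had been backcrossed to C57BL/6 for at least 10 generations, and each sample pooled the sorted cells of 3 mice. Every sample, untreated ones included, spent 30 min in medium with 30% fetal calf serum, IL-3 and IL-6 at 10 ng/ml each and SCF at 50 ng/ml, and cells were harvested 3 h after irradiation. RNA was extracted with an RNeasy Micro kit, amplified by the Affymetrix WT Pico method and labelled with biotin. The sources used here give neither the deleted part of Zc3hc1 nor whether irradiated and untreated samples came from shared pools, so the p-values measure only how these arrays vary.

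MicroRNA genes are transcribed as long primary transcripts, from their own promoters or as part of a host gene. Drosha cuts a hairpin from the primary transcript, exportin-5 carries it to the cytoplasm, Dicer trims it, and an Argonaute protein then uses the short mature strand to pair with messenger RNAs, mainly through the seed at bases 2 to 8. Mir34a is a direct transcriptional target of p53, the factor that is stabilised after DNA double-strand breaks. Probe sets of this kind can pick up the primary transcript or the hairpin as well as the mature strand, so the values below are signals of the microRNA gene and not levels of mature microRNA. With whole populations on the array, fewer cells of a type and less RNA per cell cannot be told apart.

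The mature strands of the microRNAs that the results turn on are printed so that members with a common seed can be seen together. Capitals mark the seed (bases 2 to 8), and sequences are from RefSeq, mouse build GRCm38.p6. A mature entry was matched for 177 of the 203 genes, giving 293 sequences with 254 different seeds, 29 of them shared by 2 or more members.
miR-34a-5p: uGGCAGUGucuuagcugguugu
miR-34b-5p: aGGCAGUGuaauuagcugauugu
miR-146a-5p: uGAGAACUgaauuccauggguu
miR-146b-5p: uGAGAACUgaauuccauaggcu
miR-221-3p: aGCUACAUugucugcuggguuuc
miR-222-3p: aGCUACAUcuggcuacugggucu
miR-23a-3p: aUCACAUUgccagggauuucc
miR-27a-3p: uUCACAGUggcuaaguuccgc
miR-31-5p: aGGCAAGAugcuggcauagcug
miR-181b-5p: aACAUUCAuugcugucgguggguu
miR-181c-5p: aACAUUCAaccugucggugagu
miR-181d-5p: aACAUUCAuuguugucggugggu
miR-193b-3p: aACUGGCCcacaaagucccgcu

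The deleted gene checked the labels: Zc3hc1 averaged 5.67 ± 0.07 and 5.78 ± 0.04 in irradiated and untreated KO arrays, against 7.95 ± 0.27 and 8.29 ± 0.26 in irradiated and untreated WT arrays (log2, SD, n = 3). Of 11 LSK markers, 9 had a probe set and 8 of these were above the brightness limit in every array. Of markers of other cells with a probe set, 2 of 4 B cell, 0 of 5 T and NK cell, 3 of 5 granulocyte, 3 of 4 monocyte, 1 of 3 erythroid, 2 of 2 megakaryocyte, 2 of 3 mast cell and 3 of 3 endothelial markers were above it in every array. Some markers moved with irradiation: Flt3 and Meis1 of the LSK list fell by 1.13 and 0.58, and Car1 and Tfrc of the erythroid list fell by 2.70 and 0.65 (averages of both genotypes, limma adjusted p 3.9e-05, 0.0031, 3.5e-06 and 0.02). Other LSK markers went either way without passing: Mecom differed by 0.79, Procr by 0.67 and Kit by -0.51 (limma adjusted p 0.08, 0.069 and 0.128). The erythroid marker Slc4a1 differed by -0.02. The erythroid marker level, averaged over 3 markers with a probe set, was 5.96 to 6.62 in irradiated KO, 7.23 to 7.69 in untreated KO, 5.97 to 6.04 in irradiated WT and 6.84 to 7.19 in untreated WT arrays. The part of these shifts in the microRNA results was not tested. Irradiated array 1 of each genotype stood apart for many microRNA genes, as described with the values below. The counts of calls and the average differences of Mir34a and Mir146 are also given without those arrays. Leaving them out was a choice made after the values were seen, so the values without them are a description.

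Averaged over both genotypes, 15 microRNA genes rose and 8 fell in irradiated cells, and none differed between KO and WT cells past the test. Mir34a had the largest difference, followed by Mir146 (the gene of miR-146a, which passed the brightness limit through irradiated arrays alone), Mir221 and Mir3097 among the rises and Mir1949 and Mir1962 among the falls. The 23 calls are 11.3% of the 203 genes, against 16.5% of all genes tested (limma, Benjamini-Hochberg adjusted over 15348 genes, threshold 0.05). This fit has no replicate block. Same-numbered irradiated and untreated WT arrays deviated together (correlation of deviations from group means 0.42 to 0.49). In KO cells untreated 1 went with irradiated 1 (0.47), untreated 2 with irradiated 3 (0.44) and untreated 3 with irradiated 2 (0.52). Same-numbered KO arrays 2 and 3 were at -0.24 and -0.12, so the number did not follow how these arrays varied together. With the replicate number as a block the count was 35, or 39 with the block within genotype. The shares of all genes called with a block are not given here, so these counts have no background beside them. Without the block, the rises were 7.39% of the microRNA genes against 6.9% of all genes, and the falls 3.94% against 9.6%. The median log2 difference was 0.05 for the microRNA genes and -0.00 for all genes.

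**Figure D1:**
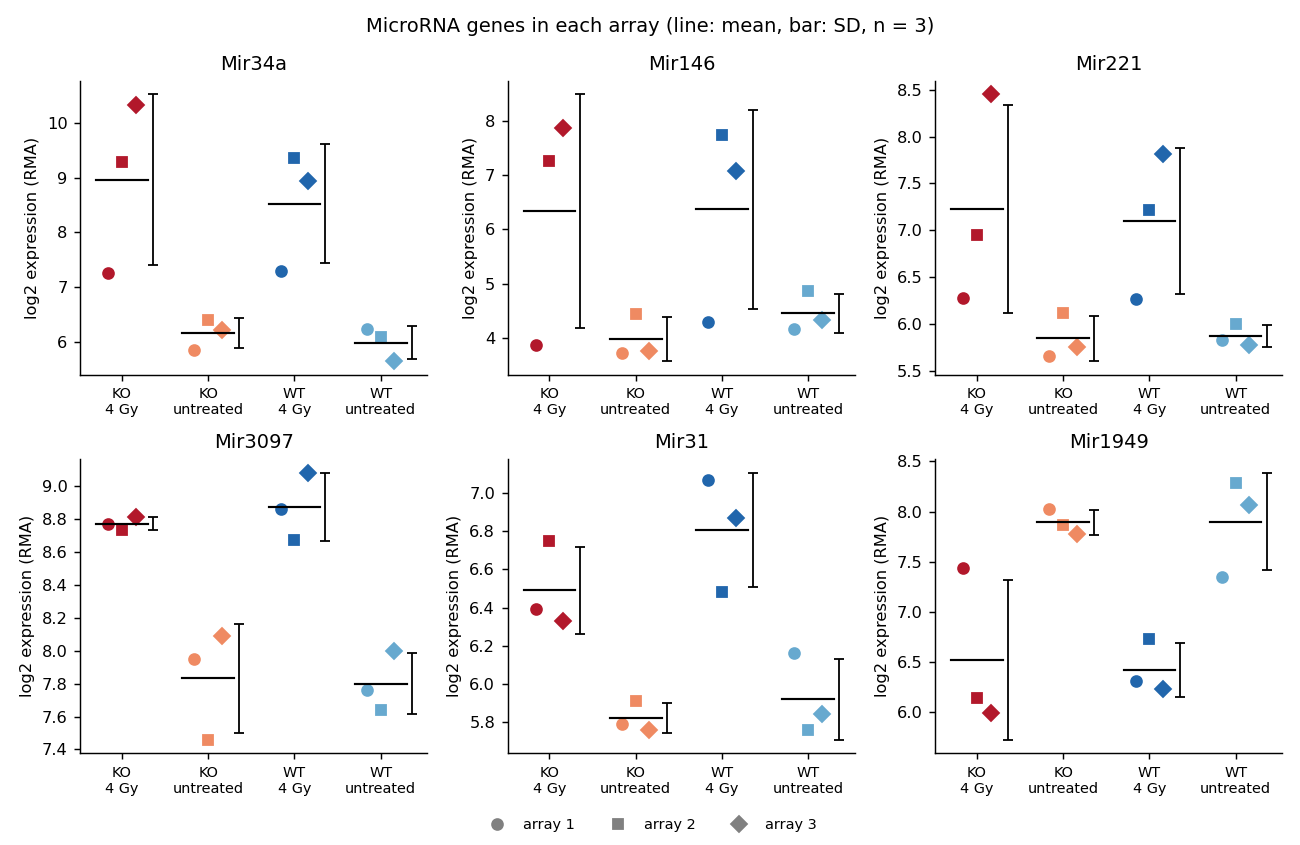
Log2 expression (RMA) of 6 microRNA genes in every array, by group along the x axis (KO 4 Gy, KO untreated, WT 4 Gy, WT untreated). Points are arrays (circle 1, square 2, diamond 3), the line is the group mean and the bar the SD (n = 3). Mir34a is above its untreated arrays in every irradiated array, Mir146 in arrays 2 and 3 only.

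Mir34a lies on chromosome 4 of GRCm38.p6, with its hairpin at chr4:150068454-150068555 on the plus strand. It read 7.26, 9.29 and 10.33 in irradiated KO arrays, against 5.85, 6.40 and 6.22 in untreated KO arrays (log2). In WT cells it read 7.29, 9.35 and 8.93 in irradiated arrays, against 6.23, 6.08 and 5.64 in untreated arrays. No irradiated array overlapped the untreated ones, and array 1 of each genotype was the lowest of its irradiated group, by over 1.5 log2 units. The difference was 2.80 (SE 0.65, 6.98-fold) in KO cells and 2.54 (SE 0.65, 5.81-fold) in WT cells, and 2.67 (SE 0.46, 95% interval 1.68 to 3.66) on average. In WT cells the adjusted p was 0.043. The call in WT cells was lost without any one of untreated KO arrays 1, 2 or 3, irradiated KO array 2, untreated WT arrays 1, 2 or 3, or irradiated WT arrays 2 or 3 (adjusted p 0.054 to 0.156). The call in KO cells was lost without untreated KO arrays 1, 2 or 3 or either of irradiated KO arrays 2 and 3 (adjusted p 0.063 to 0.09). The averaged difference passed in every alternative tried, and it was 3.40 without irradiated array 1 of both genotypes.

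The other genes of the miR-34 family did not pass the test or the brightness limit. Mir34b shares its seed with Mir34a, as the printed strands show. Its row read 4.94, 5.20 and 5.50 in irradiated KO, 5.15, 5.16 and 5.28 in untreated KO, 5.16, 5.47 and 5.63 in irradiated WT and 5.31, 4.75 and 5.18 in untreated WT arrays. The groups overlapped, and the average difference was 0.18 (SE 0.13, adjusted p 0.38). Mir34c was under the brightness limit in all 12 arrays, with group means of 4.21 in irradiated KO, 4.05 in untreated KO, 4.09 in irradiated WT and 4.08 in untreated WT.

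Of the direct p53 targets used as a check, Cdkn1a, the cell cycle inhibitor p21, rose by 1.29 (SE 0.16), Mdm2, the ubiquitin ligase that limits p53, by 1.63 (SE 0.17) and Phlda3, an inhibitor of AKT signalling, by 2.78 (SE 0.14) on average. Mdm2 read 9.63, 10.48 and 10.64 in irradiated KO arrays and 9.73, 10.38 and 10.28 in irradiated WT arrays, with untreated arrays at 8.38 to 8.71. Array 1 was the lowest of each irradiated group for Mdm2, as for Phlda3 (9.60, 10.21 and 10.27 in KO, 9.72, 10.39 and 9.96 in WT). Cdkn1a read 12.10, 12.13 and 12.56 in irradiated KO and 12.12, 12.72 and 11.98 in irradiated WT arrays, where array 3 was the lowest.

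Mir146 encodes miR-146a, a brake on signalling downstream of Toll-like and interleukin-1 receptors. It read 3.87, 7.26 and 7.86 in irradiated KO arrays, against 3.72, 4.45 and 3.77 in untreated KO arrays. In WT cells it read 4.29, 7.73 and 7.08 in irradiated arrays, against 4.17, 4.86 and 4.34 in untreated arrays. Irradiated arrays 2 and 3 of both genotypes were over 2 units above every untreated array, while irradiated array 1 lay among the untreated ones. The average difference was 2.13 (SE 0.67, adjusted p 0.048). Mir146 was above the brightness limit in irradiated arrays 2 and 3 of each genotype and in no untreated array, so it was tested only because it was high there. The call was lost in 14 of 21 refits, 4 of which kept all 12 arrays. It was lost without any single array other than irradiated array 1 of KO or of WT (adjusted p 0.071 to 0.111). Without both of those arrays, which are the ones where Mir146 lay among the untreated values, the difference was 3.26. Mir146b, whose mature strand has the same seed, differed by 0.26 (SE 0.14, adjusted p 0.216).

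Mir221 and Mir222 are neighbours on the X chromosome whose mature strands share a seed, and both microRNAs are known to target KIT in human cells. Mir221 read 6.28, 6.95 and 8.45 in irradiated KO, against 5.66, 6.12 and 5.75 in untreated KO arrays, and 6.26, 7.22 and 7.81 in irradiated WT, against 5.83, 6.00 and 5.77 in untreated WT arrays. Mir222 read 5.40, 7.34 and 8.46 in irradiated KO, against 5.61, 5.83 and 5.81 in untreated KO arrays, and 5.84, 7.01 and 7.67 in irradiated WT, against 5.18, 5.85 and 6.38 in untreated WT arrays. For Mir221 the irradiated arrays were above the untreated ones in both genotypes, and for Mir222 array 1 overlapped them. On average Mir221 rose by 1.31 (SE 0.33, adjusted p 0.017), and Mir222 differed by 1.18 (SE 0.45, adjusted p 0.095).

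Mir23a and Mir27a form a cluster on mouse chromosome 8 and Mir23b lies on chromosome 13; miR-27a is known from myeloid and lymphoid differentiation. Mir27a read 8.05, 8.87 and 9.05 in irradiated KO, against 7.66, 8.06 and 8.13 in untreated KO arrays, and 8.45, 8.79 and 9.10 in irradiated WT, against 7.89, 7.83 and 8.14 in untreated WT arrays. The WT groups were apart, and in KO cells irradiated array 1 overlapped the untreated arrays. On average Mir27a rose by 0.76 (SE 0.17, adjusted p 0.0098), Mir23a by 0.73 (SE 0.19, adjusted p 0.018) and Mir23b by 0.84 (SE 0.25, adjusted p 0.04). The call of Mir23b was lost without KO untreated 1 or 2, KO irradiated 2 or 3, any WT untreated, or WT irradiated 2 or 3 as single arrays (adjusted p 0.051 to 0.099).

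Mir3097 and Mir31 were higher in every irradiated array than in any untreated array of their genotype, array 1 included. Mir3097 lies inside Rgs12 on chromosome 5, on the same strand, with its hairpin at chr5:35021049-35021115. It read 8.77, 8.73 and 8.81 in irradiated KO, against 7.95, 7.46 and 8.09 in untreated KO arrays, and 8.86, 8.67 and 9.08 in irradiated WT, against 7.76, 7.64 and 8.0 in untreated WT arrays. It rose by 0.93 in KO (SE 0.17, adjusted p 0.0059) and by 1.07 in WT cells (SE 0.17, adjusted p 0.0028), and it alone kept both calls in every alternative tried. Mir31, which lies inside the non-coding gene Gm49890 on chromosome 4, read 6.39, 6.75 and 6.33 in irradiated KO, against 5.79, 5.91 and 5.76 in untreated KO arrays, and 7.07, 6.48 and 6.87 in irradiated WT, against 6.16, 5.76 and 5.84 in untreated WT arrays. It rose by 0.67 in KO (SE 0.17, adjusted p 0.035) and by 0.89 in WT cells (SE 0.17, adjusted p 0.0094). The KO call of Mir31 was lost without any one of the untreated KO arrays, KO irradiated 2 or 3 or WT untreated 3 (adjusted p 0.052 to 0.143), and its WT call without untreated WT array 2 or 3 (0.052 to 0.054).

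The other rises in the average were smaller or more uneven. Mir1938 rose by 0.56, Mir692-1 by 0.46 and Mir375 by 0.34 (adjusted p 0.0089, 0.014 and 0.014), calls that held in each average refit. The Mir375 rise was uneven between genotypes. Its irradiated KO arrays stood -0.00, 0.33 and 0.11 from the untreated KO mean. The irradiated WT arrays stood 0.55, 0.40 and 0.62 from the untreated WT mean. Mir224 rose by 0.91, Mir674 by 0.68, Mir5123 by 0.54 and Mirlet7i, a let-7 gene, by 0.38 (adjusted p 0.022, 0.027, 0.034 and 0.049). Each of these 4 was lost without single arrays. For Mir224 these were untreated KO 1, irradiated KO 2 and 3, untreated WT 3 and irradiated WT 3 (0.054 to 0.06), and for Mir674 untreated KO 1 and 2, irradiated KO 2, untreated WT 2 and irradiated WT 2 and 3 (0.05 to 0.071). For Mir5123 they were untreated and irradiated KO 1 and 3, untreated WT 1 and 2 and irradiated WT 2 and 3 (0.05 to 0.084). For Mirlet7i they were every array except untreated KO 2 and irradiated array 1 of each genotype (0.068 to 0.113). The Mirlet7i call was also lost in 3 refits that kept all 12 arrays. Mir5123 differed by 0.20 in KO (limma adjusted p 0.695) and rose by 0.89 in WT cells (0.042).

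Mir1949 fell most. It lies inside Snhg4, a non-coding host of small nucleolar RNAs (their strands were not compared). Snhg4 differed by -0.41 on average (SE 0.15, limma adjusted p 0.077). Mir1949 read 7.44, 6.14 and 5.99 in irradiated KO, against 8.03, 7.87 and 7.78 in untreated KO arrays. In WT cells it read 6.31, 6.73 and 6.23 in irradiated arrays, against 7.35, 8.28 and 8.07 in untreated arrays. The groups did not overlap, and irradiated KO array 1 was the nearest to untreated. It fell by 1.37 in KO (SE 0.33, adjusted p 0.032) and by 1.47 in WT cells (SE 0.33, adjusted p 0.025), and by 1.42 on average (adjusted p 0.0016). The KO call was lost without any one of the untreated KO arrays, KO irradiated 2 or KO irradiated 3 (adjusted p 0.067 to 0.125), and the WT call without WT untreated 2 or 3 or WT irradiated 1 or 3 (0.063 to 0.122).

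Mir1962 read 7.70, 7.34 and 8.27 in irradiated KO, against 8.52, 8.78 and 9.08 in untreated KO arrays, and 7.41, 8.12 and 7.90 in irradiated WT, against 8.22, 8.58 and 8.87 in untreated WT arrays. Its irradiated arrays lay below the untreated ones in both genotypes, and it fell by 0.89 on average (SE 0.18, adjusted p 0.0056). Mir763 fell by 0.58 and Mir5124a by 0.80 (adjusted p 0.0036 and 0.01). Mir301b fell by 0.48 (adjusted p 0.0059). Mir193b, whose mature strand is printed above, fell by 0.48 (SE 0.13, adjusted p 0.02), and its neighbour Mir365-1 differed by -1.01 (SE 0.34, adjusted p 0.062). The Mir193b call was lost without KO untreated 1 or 2 or WT untreated 3 (0.051 to 0.055).

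The miR-181 genes share 1 seed and did not move together. miR-181 is known for setting thresholds in lymphocyte development. Mir181c fell by 0.55 (SE 0.16, adjusted p 0.035) and Mir181b-2 by 0.67 (SE 0.20, adjusted p 0.037), while Mir181d, in the same cluster as Mir181c, differed by -0.07 (SE 0.11) and Mir181a-2, in that of Mir181b-2, by 0.03 (SE 0.13). Mir181a-1 and Mir181b-1 differed by 0.74 (SE 0.50) and 0.57 (SE 0.55). The Mir181c call was lost without KO untreated 2 or 3, KO irradiated 1 or 2, WT untreated 2 or 3 or WT irradiated 1 or 2 (adjusted p 0.055 to 0.086). The Mir181b-2 call was lost without KO untreated 2 or 3, KO irradiated 1 or 3, WT untreated 1 or 3 or WT irradiated 2 (0.051 to 0.092).

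**Figure D2:**
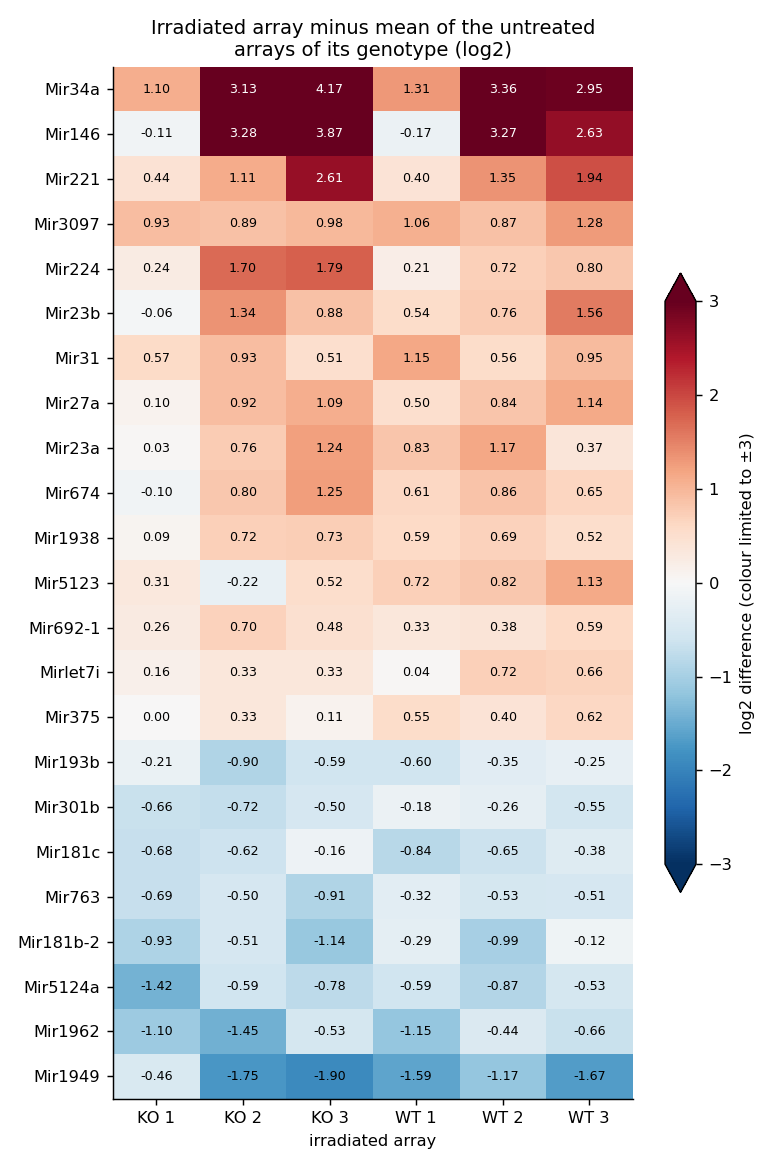
Each irradiated array minus the mean of the untreated arrays of its genotype (log2), for the 23 microRNA genes past the test in the average, ordered by their average difference from highest to lowest. Columns are the 3 irradiated KO arrays and then the 3 irradiated WT arrays. Mir146 is near 0 in array 1 of both genotypes (-0.11 and -0.17), whereas Mir3097 is raised in all 6 arrays.

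Array 1 was the lower one for the risers as a group. Over the 15 rising members the median difference from the untreated mean was 0.16, 0.89 and 0.98 in irradiated KO arrays 1 to 3 and 0.55, 0.82 and 0.95 in irradiated WT arrays. For all 1059 genes that rose it was 0.45, 0.66 and 0.61 in KO and 0.45, 0.55 and 0.61 in WT arrays. The medians of the 8 falling members were even, at -0.69, -0.67 and -0.68 in KO and -0.60, -0.59 and -0.52 in WT arrays. Single members were not. In KO arrays Mir1949 was at -0.46, -1.75 and -1.90, and Mir5124a at -1.42, -0.59 and -0.78. Leaving out array 1 of both irradiated groups was a choice made after the values were seen. It gave 37 calls (31 rises and 6 falls), with 21.9% of all genes called. Of the 23 genes, 20 were called again. Mir181b-2, Mir181c and Mir5123 were not (limma adjusted p 0.054, 0.101 and 0.05). Irradiated array 1 was left out because it was low for many of these genes, while untreated array 1 was kept. The larger count is therefore a description.

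Array 1 was also low in the untreated groups for a set of microRNA genes. In 23 of the 203 genes (11.3%) array 1 was the lowest of its 3 in all 4 groups, against 4.93% of all genes, and in 2 it was the highest in all 4 (0.985%, against 4.1%). This comparison was made after the values were seen. The set holds Mir146, Mir181b-1, Mir181a-1, Mir222, Mir16-1, Mir30b and Mir15a. Of the genes past the test in the average, Mir146 and Mir181c are in it. For Mir146, array 1 minus the mean of the other 2 was -3.69 in irradiated KO and -0.39 in untreated KO arrays. In WT cells it was -3.12 in irradiated and -0.44 in untreated arrays. Mir181b-1 read 7.06, 8.03 and 9.24 in irradiated KO, 6.44, 8.02 and 7.97 in untreated KO, 6.32, 8.35 and 8.20 in irradiated WT and 5.46, 7.60 and 8.30 in untreated WT arrays. The gap of array 1 to the mean of the other 2 was -1.58, -1.56, -1.96 and -2.50 in those groups. The median gap over the 203 genes was -0.23 in irradiated KO, -0.11 in untreated KO, -0.09 in irradiated WT and -0.05 in untreated WT arrays.

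**Figure D3:**
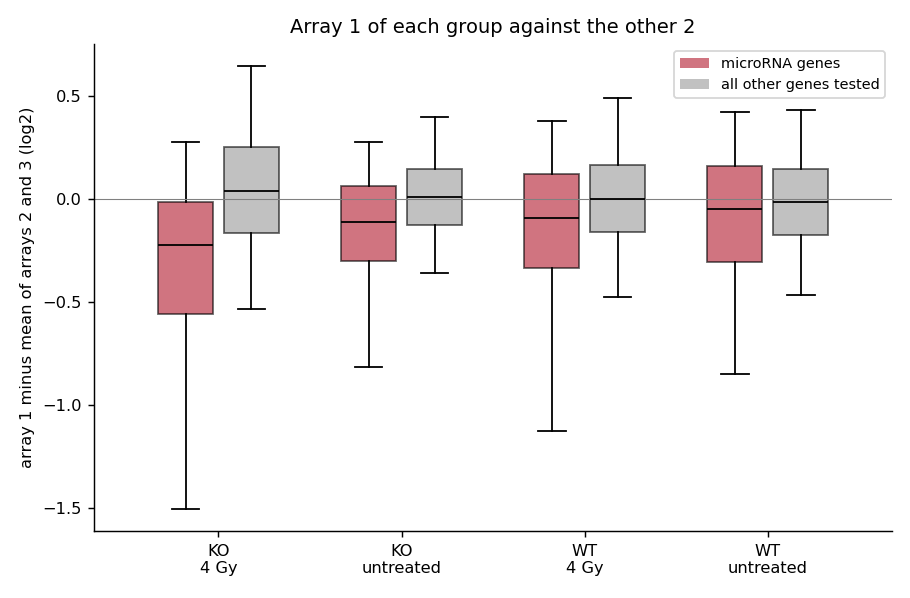
Array 1 minus the mean of arrays 2 and 3 (log2) in each group, for the 203 microRNA genes (red) and the other genes tested (grey). Boxes span the quartiles with the median as a line, and whiskers the 5th to 95th percentile. The microRNA boxes reach further below 0 than the grey ones in all 4 groups, with medians of -0.23, -0.11, -0.09 and -0.05.

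Within single genotypes fewer genes passed. In KO cells 7 of the 203 did (3.45%, against 5.94% of all genes). Mir3097, Mir34a and Mir31 rose, against 2.74% of all genes, and Mir763, Mir301b, Mir1949 and Mir1962 fell, against 3.2% of all genes. The count was 19 without irradiated KO array 1, 2 without irradiated KO array 2 and 3 without irradiated KO array 3. It was 3, 1 and 2 when untreated KO array 1, 2 or 3 was left out. The shares of all genes called in these refits are not given here. With irradiated array 1 of both genotypes left out, 11.1% of all genes were called, so the count over the whole table moved as well. In KO cells the call of Mir763 was lost without any one of the untreated KO arrays or KO irradiated 3 (adjusted p 0.058 to 0.082), and that of Mir301b without KO untreated 1 or 2 or KO irradiated 2 (0.061 to 0.089). The Mir1962 call was lost without any one of the untreated KO arrays, KO irradiated 1 or 2 or WT untreated 2 (0.052 to 0.137). Irradiated and untreated KO arrays did not overlap in 26 of the genes (12.8%, against 23.4%).

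In WT cells 6 of the 203 passed (2.96%, against 4.83% of all genes). Mir3097, Mir31, Mir375, Mir5123 and Mir34a rose, against 2.13% of all genes, and Mir1949 fell, against 2.7% of all genes. The same-numbered WT arrays deviated together, and with the number as a block within each genotype the count was 12. The count was 10 without irradiated KO array 1 and 2 without irradiated WT array 3, and it was 1 and 2 when untreated WT array 2 or 3 was left out. The shares of all genes called in these refits and with the block are not given here. With irradiated array 1 of both genotypes left out, 7.47% of all genes were called. The call of Mir375 (0.53) was lost without WT untreated 2 or 3 or WT irradiated 1 or 3 (adjusted p 0.055 to 0.09). The call of Mir5123 (0.89) was lost without KO untreated 1, WT untreated 1 or 2 or any one of the irradiated WT arrays (0.056 to 0.161). Irradiated and untreated WT arrays did not overlap in 32 of the genes (15.8%, against 24.8%).

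**Figure D4:**
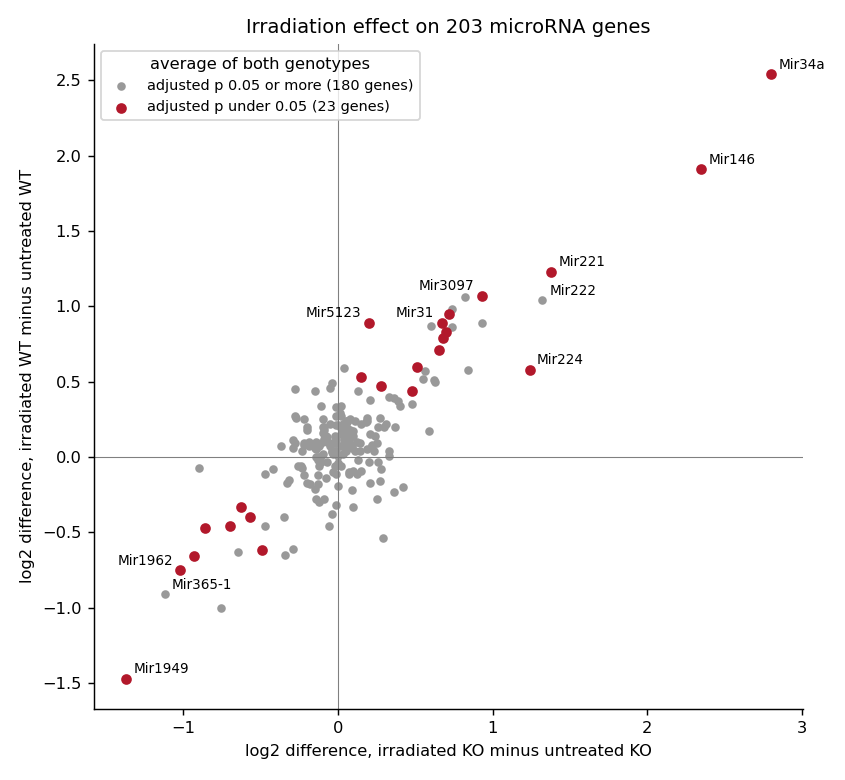
Log2 difference between irradiated and untreated arrays in KO cells (x axis) and in WT cells (y axis), 1 point per microRNA gene (203). Red points are the 23 genes past the test in the average of both genotypes. Mir34a (2.80 and 2.54) and Mir1949 (-1.37 and -1.47) lie at the ends of the cloud.

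The irradiation difference had the same sign in both genotypes for 132 of the 203 microRNA genes (65%), against 74.5% of all genes. No microRNA gene passed a genotype comparison by limma. Between KO and WT, 0 of 203 passed in untreated cells and 0 in irradiated cells (all genes 0.00652% in each, 1 gene), with 7 members (all genes 2.15%) and 3 members (all genes 3.07%) at an unadjusted p under 0.05. The difference of the irradiation effects also gave 0 (all genes 0%), with 4 members (all genes 1.53%) at an unadjusted p under 0.05. The median half-width of the 95% interval was 0.379 log2 units for the genotype differences and 0.536 for the difference of effects.

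Mir34a differed between KO and WT by 0.18 in untreated cells (95% interval -1.23 to 1.58) and by 0.44 in irradiated cells (-0.97 to 1.85). The irradiation effect differed by 0.26 between the genotypes (-1.72 to 2.25). Without irradiated KO array 3 or irradiated WT array 1 the irradiated difference turned to -0.25 and -0.18 and the difference of effects to -0.42 and -0.35. The genes with the smallest limma p before adjustment were Mir344f in untreated cells (-0.68, adjusted p 0.9998), Mir375 in irradiated cells (-0.38, adjusted p 0.9995) and Mir5100 for the difference of effects (-0.73, adjusted p 0.9999). Mir5100 read 5.56, 5.67 and 5.55 in irradiated KO, 5.66, 5.91 and 6.05 in untreated KO, 6.10, 5.56 and 5.94 in irradiated WT and 5.25, 5.42 and 5.58 in untreated WT arrays.

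Many microRNA genes lie within other genes. By RefSeq GRCm38.p6, 141 of the 203 lie inside another gene, 87 of them on its strand as far as both strands were known, and 65 have a same-strand host that was itself tested (59 hosts). Averaged over genotypes, the microRNA and its host differed in the same direction in 41 of the 65 pairs. The pairs include Mir3109 and Mir1967, which passed the brightness limit through irradiated arrays alone and untreated arrays alone. Across these pairs r was 0.437, and 0.297 without the Rgs12 and 2610318N02Rik pairs; pairs that share a host are not independent. The microRNA passed in 8 pairs, the host in 14 and both in 2, where 16.5% of all genes passed.

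Those 2 were Mir3097 with Rgs12, a regulator of G-protein signalling, and Mir301b with 2610318N02Rik. Rgs12 read 9.73, 8.65 and 8.89 in irradiated KO, against 8.14, 7.67 and 7.54 in untreated KO arrays, and 9.34, 9.06 and 8.84 in irradiated WT, against 7.92, 7.92 and 7.71 in untreated WT arrays. It rose by 1.27 (SE 0.18), beside 1.00 for Mir3097. 2610318N02Rik fell by 0.79 (SE 0.16), beside 0.48 for Mir301b. Of the other pairs where the microRNA passed, Mir5123 rose by 0.54 with its host B4galt1 at 0.51 (adjusted p 0.074). In the rest the host differed less: Mir1962 fell by 0.89 while its host Ptpre, a protein tyrosine phosphatase, differed by 0.02. Mir5124a fell by 0.80 with its host Gcnt2 at -0.05, and Mir763 by 0.58 with Hmga2, a chromatin protein of stem cells, at -0.17. Mir23b rose by 0.84 with Aopep at 0.16 and Mir224 by 0.91 with Gabre at 0.13. Pairs where only the host passed went both ways. Mir191 differed by 0.71 (adjusted p 0.109) while its host Dalrd3 fell by 0.34 (adjusted p 0.014). Mir1967 differed by -0.88 (adjusted p 0.079) and its host Urb2 fell by 0.50 (adjusted p 0.025). Mir1967 was above the brightness limit in untreated arrays only, so it was tested only because it was high there. Mir191 has 2 probe sets, and the dimmer one, not used, averaged 7.16 in irradiated KO, 7.06 in untreated KO, 7.22 in irradiated WT and 7.09 in untreated WT arrays.

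**Figure D5:**
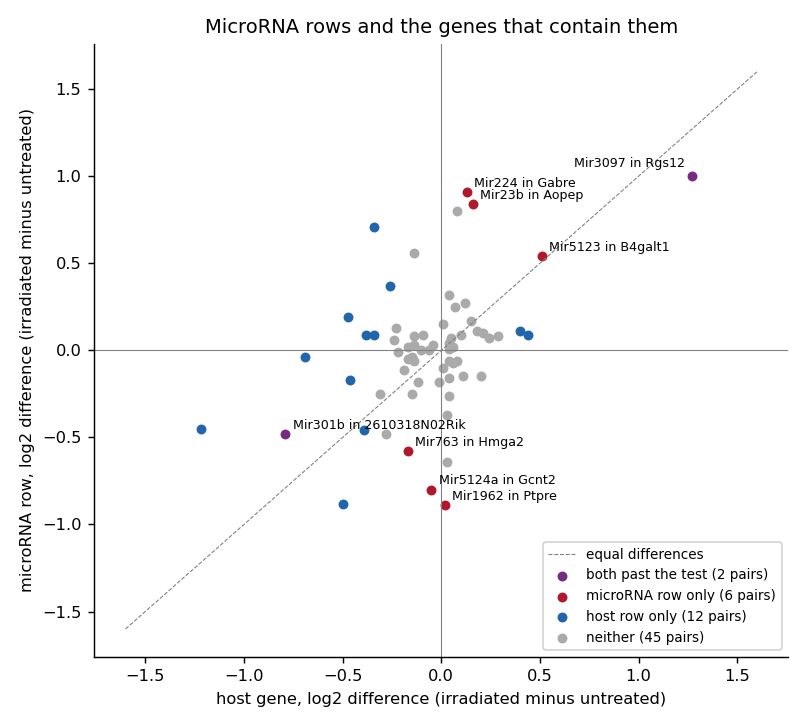
Average log2 difference (irradiated minus untreated) of the host gene (x axis) and of the microRNA row (y axis) for 65 same-strand pairs, coloured by which of the pair passed the test; the dashed line marks equal differences. Mir3097 with Rgs12 and Mir301b with 2610318N02Rik are the 2 pairs where both passed.

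Clusters, here microRNA genes within 10 kb of each other, held 59 of the members in 21 groups of 2 or more. In 14 of them all members differed in 1 direction on average, a count that was not set against a baseline. A member passed in 5: Mir23a and Mir27a of 1 cluster, and Mir221, Mir193b, Mir181b-2 and Mir181c. Among all genes 16.5% passed, a share per gene that is no baseline for a count of clusters. A cluster of several members has more chances to hold a call. Mir17, Mir18, Mir19a and Mir20a of the growth-promoting Mir17 cluster differed by 0.17, 0.12, 0.10 and 0.05 (SE 0.23 to 0.26), and none passed. Mir30b and Mir30d differed by 0.86 and 0.94 (adjusted p 0.159 and 0.141) and Mir15a and Mir16-1 by 0.56 each (0.315 and 0.38).

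Of 21 microRNA genes linked to p53 in the literature, 10 were tested, 8 lay below the brightness limit and 3 had rows with several symbols only. On average Mir34a, singled out with its response known, and Mir23a of the 10 rose and none fell, where 6.9% of all genes rose and 9.6% fell. The median was 0.29, against -0.00 for all genes. Mir192 and Mir215, known p53 targets in other tissues, were below the limit in all 12 arrays. Of 57 microRNA genes known from blood cells, 27 were tested. Of these Mir146, Mir221, Mir27a and Mir23a rose and Mir193b, Mir181c and Mir181b-2 fell (median 0.18), beside the same 6.9% and 9.6% of all genes. Among the rises, Mir146 was tested only because it was high in irradiated arrays. Mir142, a gene of all blood lineages, differed by -0.29 (SE 0.15, adjusted p 0.221), and Mir451a and Mir144, known from red cell precursors, were below the limit in all arrays. Of 12 let-7 genes 4 were tested and Mirlet7i rose (6.9% of all genes did).

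Among 26 tested genes of microRNA processing, 1 rose and 4 fell on average (median -0.03), a share near the 16.5% of all genes called. Xpo5, the exporter of hairpins, fell by 0.39 (SE 0.08), Ran, the GTPase that works with it, by 0.49 (SE 0.10), Ago1, an Argonaute protein, by 0.44 (SE 0.07) and Dis3l2, an exonuclease that degrades tailed let-7 precursors, by 0.48 (SE 0.09). Their adjusted p were 0.0077, 0.0047, 0.0016 and 0.0032. Tut7, which adds uridines to precursors, rose by 0.28 (adjusted p 0.044). Drosha differed by -0.03 (SE 0.07) and Dicer1 by -0.20 (SE 0.08, adjusted p 0.126).

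Of 30 tested genes described as miR-34 targets, 5 rose and 6 fell, with a median of 0.05, beside 6.9% and 9.6% of all genes. The falls were Birc5, the mitotic protein survivin (2.05), the growth-promoting transcription factors Myc (1.15) and Mycn (0.80), the cell cycle kinase Cdk4 (0.50), the survival protein Bcl2 (0.41) and Foxp1 (0.34) in log2 units. The rises were the receptor Notch1 (0.81) and its ligand Jag1 (0.68), Ppp1r10 (0.77), Zc3h12c (0.70) and the adhesion receptor Cd44 (0.40). Kit, Met and Sirt1 differed by -0.51, 0.47 and 0.20 (adjusted p 0.128, 0.089 and 0.166).

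At the brightness limit, Mirlet7d, Mir1953, Mir133b and Mir3109 lay just inside, with a third-highest array value of 5.288, 5.292, 5.298 and 5.317, and Mir3473b, Mir7-1, Mir764 and Mir1298 just outside at 5.282, 5.274, 5.270 and 5.264. Of the 203 genes, 141 were above the limit in all 12 arrays and 62 in 3 to 11. Mir146 and Mir3109 passed through irradiated arrays alone and Mir326 and Mir1967 through untreated arrays alone. More genes needed 1 side to pass: 19 were above the limit in under 3 untreated arrays and 9 in under 3 irradiated arrays. In addition, 1 gene was above it in WT arrays only. Of the 280 genes that did not pass, 259 were below the limit in every array and 21 above it in 1 or 2.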

How the data were processed

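The deposited log2 values, with 1 value for each probe set on each array, were used; per the submitters' processing notes the authors made them with the R package oligo and RMA, which corrects background, normalizes by quantiles and summarises probes. The sources used here name no version, genome build or annotation release for these steps. Array medians lay between 5.74 and 5.85, and the number of arrays limits the precision. Of 41345 probe sets, 23521 carried 1 symbol in the platform annotation, 1814 several and 16010 none. 136 rows with a microRNA among several symbols were not used.

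Groups and replicate numbers came from the sample titles. limma 3.58.1 in R 4.3.3 (lmFit, eBayes) fitted all 12 arrays and 15348 genes without a replicate block, with two-sided p-values adjusted by Benjamini-Hochberg, threshold 0.05. An exact permutation test of 3 against 3 cannot go below 0.1 and was not used. The fit was tested on simulated data. Same-numbered arrays were checked for pairing by correlating their deviations from group means: 0.42 to 0.49 between irradiated and untreated WT, 0.15 to 0.32 between untreated KO and irradiated WT, 0.10 to 0.23 between untreated KO and untreated WT, -0.24 to 0.47 between irradiated and untreated KO, -0.23 to 0.19 between irradiated KO and untreated WT and -0.29 to 0.34 between irradiated KO and irradiated WT. Every pair was above 0.1 for the first 3 comparisons. Between untreated and irradiated KO arrays different numbers also went together, untreated 2 with irradiated 3 at 0.44 and untreated 3 with irradiated 2 at 0.52.

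The members and gene lists were chosen with earlier results of these data known. Named were the miR-34 family, every member past the threshold, the most extreme members without overlap between groups, list members, members with hosts, members at the brightness limit and the check genes; cluster partners and members low in array 1 were added after their values were seen. Hosts, clusters and sequences are from RefSeq GRCm38.p6.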

Additional observations from a re-analysis of the deposited data

How the results depend on the processing

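Refits used array medians subtracted, cyclic loess, other brightness limits, another prior, only the arrays compared, a replicate block, and each array left out. In KO cells the count of 7 calls was 4 with only the arrays compared, 13 with a replicate block, 15 with the block within genotype, 20 without irradiated array 1 of both genotypes (added after the data were seen) and 1 to 19 with 1 array left out. In WT cells the count of 6 was 10, 10, 12, 17 and 1 to 10 in the same order. For the average the 23 calls were 35 with the replicate block, 39 with it within genotype and 37 without irradiated array 1 of both genotypes. Without those arrays 11.1% of all genes were called in KO, 7.47% in WT and 21.9% in the average. For the other refits the share of all genes is not given here, so their counts have no background beside them. Every call made without a block was also made with it, and the genotype counts stayed at 0; same-numbered irradiated and untreated KO arrays correlated from -0.24 to 0.47. Mir34a kept its rise: 2.80 (adjusted p 0.066) in KO with only the arrays compared and 2.12 to 3.65 with 1 array left out; 2.54 in WT with no brightness limit (0.053) and with a trended and robust prior (0.073), and 2.13 to 3.15 with 1 array left out. Without irradiated KO array 3 and irradiated WT array 1 its KO minus WT difference reversed to -0.25 and -0.18 in irradiated cells, and the difference of effects to -0.42 and -0.35; with 1 array left out they ranged from -0.25 to 1.29 and from -0.42 to 1.12. Mir34a lost its call in 6 of 22 refits in KO, 11 of 22 in WT and 0 of 21 for the average. Among the other single genes named as called, 583 of 703 refits kept the call and 120 lost it, with the direction kept. The cause was not tested.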
